A study of Drosophila melanogaster with 2 samples.

Results

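The regions described here are dense islands of Sry-beta binding: stretches of the fly genome in which many peaks of the zinc finger protein Sry-beta lie close together. A peak was taken as an island member when its summit had at least 3 other summits within 20 kb on the same chromosome arm, counted in the authors' final list, which was filtered for reproducibility by the irreproducible discovery rate (IDR). Of 3257 IDR peaks, 1275 (39.1%) met this rule and 1982 did not. Members were chained into islands while neighbouring members lay no more than 20 kb apart, which is when windows of 20 kb centred on them overlap, and this gave 269 islands. Because the positions of the summits selected the members, the density itself is a description and not a finding.

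Sry-beta, the product of a gene of the serendipity cluster, has zinc fingers of the C2H2 kind and carries the zinc-finger-associated domain (ZAD), an amino-terminal domain that lets many insect zinc finger proteins form dimers. Proteins of this class, and the insulator proteins they often neighbour on chromatin, bind at housekeeping promoters, which in flies are commonly packed side by side and arranged head to head. A group of close peaks can therefore be a row of neighbouring promoters, a cluster of sites within a long gene, or a single broad site that a peak caller has divided among several summits.

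The data come from chromatin immunoprecipitation and sequencing (ChIP-seq) of whole Drosophila melanogaster embryos of both sexes, collected at 0 to 12 h. The embryos came from a transgenic line that stably carries Sry-beta with GFP fused to its C-terminal end. There was 1 group, with biological replicates 2 and 4, and no untagged or mutant group, so conditions could not be compared. The labels' free text describes each library as an input control, whereas the assay title, the antibody entry and the lists of peaks belong to a ChIP experiment, which is how both were treated. The depth of the libraries is unknown, since the lists give no reads, and whole embryos mix cell types, so more cells bound and more binding per cell cannot be told apart.

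The sequences below are the 101 bp centred on member summits, read from the dm6 genome on the plus strand. The first 5 are the highest members of 5 of the 6 largest islands, and the others are high members that hold one of the searched motifs. Capitals mark the palindrome TAGCTA, the DNA replication-related element (DRE) TATCGATA, the stretch GGTCACAC of the core promoter element Motif 1, or AGAGATG, a core shared by the Sry-beta and Sry-delta consensus sites. The shorter words CGATA and GAGAG were also searched but are not capitalised.
Rab3-GAP, chr2L:12063175-12063275: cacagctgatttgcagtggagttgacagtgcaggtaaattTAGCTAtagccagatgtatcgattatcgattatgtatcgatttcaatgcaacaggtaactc
P58IPK, chr3R:9586818-9586918: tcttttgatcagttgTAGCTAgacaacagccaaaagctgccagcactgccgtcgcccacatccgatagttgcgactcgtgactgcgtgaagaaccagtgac
Atg5, chrX:7319189-7319289: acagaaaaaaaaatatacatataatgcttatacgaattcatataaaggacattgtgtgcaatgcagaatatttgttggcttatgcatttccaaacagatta
CG13894, chr3L:699449-699549: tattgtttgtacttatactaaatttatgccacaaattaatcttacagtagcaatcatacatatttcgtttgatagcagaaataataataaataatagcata
xit, chrX:6820924-6821024: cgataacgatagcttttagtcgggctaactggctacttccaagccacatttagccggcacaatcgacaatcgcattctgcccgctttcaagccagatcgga
CG10274, chr3L:6181979-6182079: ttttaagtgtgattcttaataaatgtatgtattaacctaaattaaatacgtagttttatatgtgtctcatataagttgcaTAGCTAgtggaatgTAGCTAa
CG14194, chrX:19193461-19193561: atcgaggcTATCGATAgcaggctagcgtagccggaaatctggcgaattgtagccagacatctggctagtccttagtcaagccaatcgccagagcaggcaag
AIF, chr2L:2151681-2151781: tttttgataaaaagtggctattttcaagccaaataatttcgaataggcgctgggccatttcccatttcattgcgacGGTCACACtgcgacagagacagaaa
Chd1, chr2L:2987724-2987824: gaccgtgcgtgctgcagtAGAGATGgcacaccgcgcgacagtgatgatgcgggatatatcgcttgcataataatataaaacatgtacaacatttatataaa

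No single word was common to these sites: the Atg5 and CG13894 windows held none of the 6 searched words, the xit window held CGATA alone, and the CG10274 window held TAGCTA at 2 places. All but the Atg5 summit, which lay in an intron, lay upstream of the named gene, within 500 bp of its transcription start site (TSS).

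**Figure D1:**
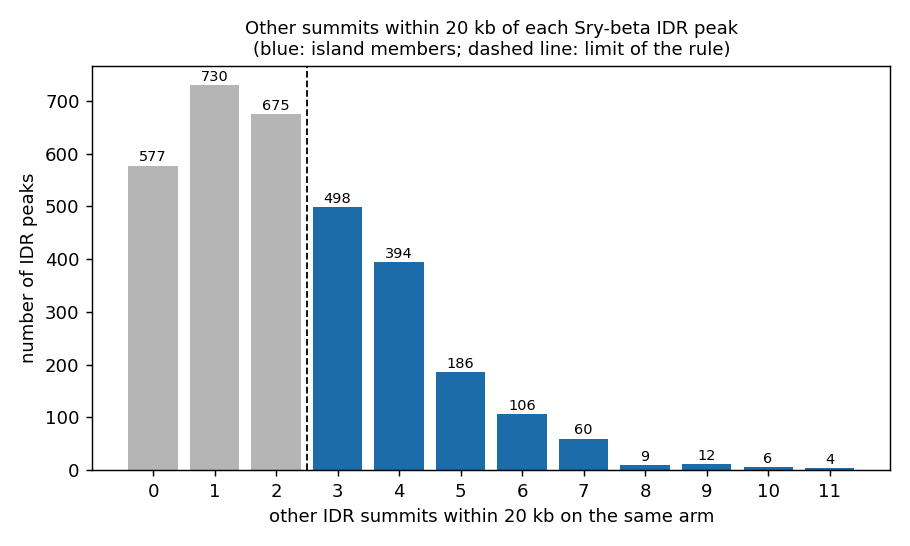
Number of IDR peaks (vertical axis) by the number of other IDR summits within 20 kb (horizontal axis), with island members in blue. The 498 members with exactly 3 others are the largest class inside the limit, next to 675 peaks with 2 others outside it.

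The edge of the rule divided peaks with near equal promoter shares and somewhat different signals. The 498 members with exactly 3 other summits had a median signal of 330.2 (the authors' peak value, of unstated scale), a promoter share of 63.5% and a median of 8 protein-coding genes within 20 kb, and 62.2% were matched to within 100 bp by the 3257 highest summits of both replicates. The 675 peaks with 2 other summits had a median signal of 284, a promoter share of 62.8% and 7 genes, and 57.9% were so matched. The third-nearest summit lay 19 to 20 kb away for 69 members and 20 to 21 kb away for 58 peaks just outside. At the other extreme, 4 members had 11 other summits within 20 kb.

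Most islands were small. The median island had 4 members, 218 islands had 4 or more, and 13 had 10 or more. The 51 islands with under 4 members, which held 82 members, arose where a member's neighbours did not themselves meet the rule. The 218 islands of 4 or more spanned a median of 18.1 kb, from 1.36 to 82.1 kb, and together covered 4.51 Mb, or 3.37% of the assembled arm bases. Within these spans lay 3083 of the 30000 peaks of the authors' pooled relaxed list, of which 38.7% were IDR peaks, against 10.9% of the whole relaxed list; the rule itself used IDR peaks, so nothing is read from that difference. Relaxed peaks that did not enter the IDR list, which the rule did not use, numbered 4.19 per 10 kb in the spans and 2.00 per 10 kb over the arms. The arms also include sequence without IDR peaks. Within 20 kb of a summit, the median was 14 such relaxed peaks for members and 12 for the other IDR peaks.

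Members were found on all large arms. They made up 44.3% of the IDR peaks on 2L (283 of 639, in 58 islands) and 44.3% on X (264 of 596, in 50 islands). The share was 39.0% on 3R (308 of 790), 35.6% on 2R (197 of 553) and 34.1% on 3L (223 of 654). None of the 25 IDR peaks of the fourth chromosome was a member.

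Many members lay within 1 kb of another IDR summit. A companion summit this close itself counts towards the rule, so the share below is set in part by the choice of members and nothing is read from its difference from other peaks. Within 1 kb of one another, IDR summits were chained into sites, and 520 of 1275 members (40.8%) shared a site with another IDR summit. A site in this sense can hold more than 1 peak interval. Among the other IDR peaks 376 of 1982 did (18.97%). Some rows of the deposited list even repeat one peak interval with different summits, which was so for 206 members in 101 intervals. The neighbouring members of an island were a median of 3101 bp apart, the closest were 199 bp apart, and 268 of 1006 neighbouring pairs (26.6%) were under 1 kb apart.

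The highest summit of a shared site and its companions differed in height and in how often both replicates held them. A member was counted as found in both replicates when each replicate had, among its own 3257 highest peaks, a summit no more than 100 bp away. The 755 members alone at their site had a median signal of 286 and 63.2% were found in both replicates. The 249 highest summits of shared sites had a median of 765, with 77.9% in both. The 271 secondary summits had a median of 320.2, a median of 0.577 of the highest summit beside them, and 29.5% were in both. Secondary summits of the other IDR peaks were in both replicates in 25.4% of cases, so the low share was not limited to islands.

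When each site was counted once, 698 of 2797 sites (24.96%) still had at least 3 other sites within 20 kb, and these formed 179 islands. They held 817 of the 1275 members (64.1%). The other 458 lay at sites that did not meet the rule when each site was placed at its highest summit. Of the 218 islands of 4 or more members, 132 had 4 or more sites, 73 had 3, 12 had 2 and 1 consisted of a single site. That island, on X from 9686030 to 9687385, lay at the promoters of nej, which encodes the histone acetyltransferase CBP. Its 4 summits, in 1356 bp, had signals of 4141, 3145, 4720 and 2020.4 in the IDR list. Replicate 4 had a summit within 100 bp of the first (3199) and the third (3258) only. Replicate 2 listed all 4, at 886, 439, 1687 and 59.5. The next shortest islands were also groups of paired summits, at IntS4, an Integrator subunit gene, with Trf4-1, and within chas; these short islands were chosen after their values were seen.

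The authors' signal was higher for members than for other IDR peaks as a whole, by a margin that was smaller once shared sites were set aside. The median was 331 for members (95% interval of the median 310.0 to 347) and 275 for the others (266 to 283), a ratio of 1.20. The ratio of medians was 1.12 in replicate 2 and 1.26 in replicate 4, or 1.19 ± 0.101 (SD, n = 2). For peaks alone at their site the ratio was 1.10, with 1.08 and 1.10 in the replicates, and for the highest summits of shared sites it was 1.44. With each site counted once it was 1.07. No test was made of members against other peaks, since the members were chosen from this list by its own calls and peaks of one library are not replicates; intervals cover the number of peaks only.

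**Figure D2:**
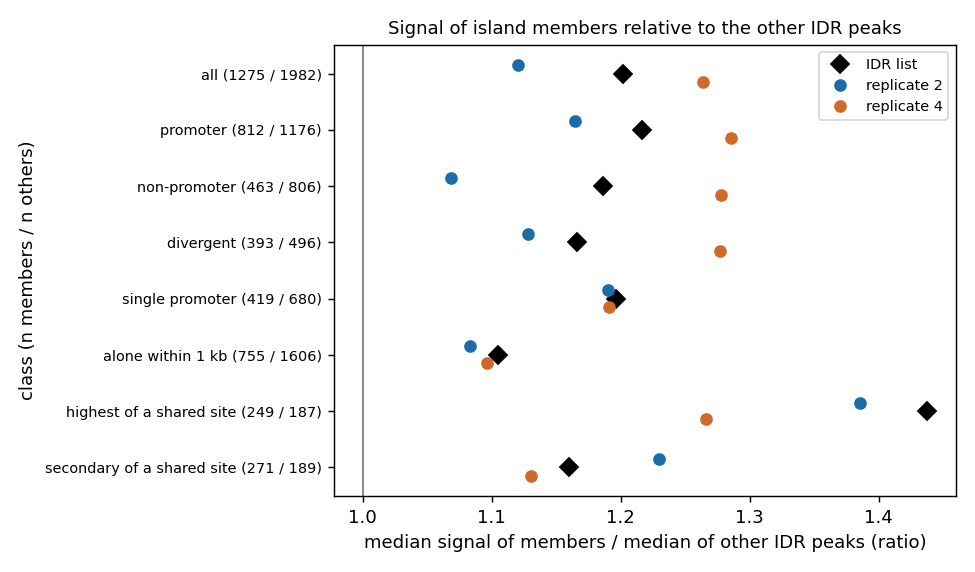
Median signal of members divided by the median of other IDR peaks (horizontal axis, linear) for all peaks and for classes of peaks, in the IDR list (diamonds) and in each replicate's relaxed list (circles). All points lie above 1; peaks alone at their site have a ratio of 1.10, and the highest summits of shared sites 1.44.

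High peaks were not mainly island peaks, though the member share of the 500 and 1000 highest was above that of the whole list (39.1%). Of the 20 highest IDR peaks 5 were members (25%, Wilson interval 11.2 to 46.9), and of the 100 highest 41 (31.9 to 50.8). Of the 500 highest 239 were members (47.8%, 43.5 to 52.2), and of the 1000 highest 465 (46.5%, 43.4 to 49.6). Presence in both replicates was near equal, at 58.9% of members (56.2 to 61.6) and 58.2% of the others (56.0 to 60.4). Spearman's rho between the replicates' signals was 0.682 over 1074 members with a relaxed summit in both and 0.580 over 1751 other peaks; these are descriptions over peaks that share 2 libraries.

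Many islands were uneven inside. In the 218 islands of 4 or more, the highest member stood a median of 3.99 times above the island's median signal, with a range of 1.06 to 34.4, and in 89 islands it stood at least 5 times above. In 58 islands it stood under 2 times above. Neighbouring members differed by a median of 1.89-fold, and 225 of 1006 neighbouring pairs differed at least 5-fold. Spearman's rho between the signals of neighbouring members was 0.0982 (n = 1006 pairs, with members shared between pairs). The most uneven island was that of pyd, whose product is the fly homologue of the junction protein ZO-1: its highest peak had a signal of 8818 and the median of its 5 members was 256. It was singled out after its values were seen.

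Island members lay in gene-rich sequence. The median number of protein-coding genes with a TSS within 20 kb was 9 for members and 6 for the other IDR peaks. The share of IDR peaks that were members went from 21.6% (Wilson interval 18.3 to 25.3) where there were 0 to 2 such genes to 61.8% (57.7 to 65.8) where there were 12 to 26. The GC content of the 101 bp around the summit was the same, with a median of 35.6% in members and others.

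**Figure D3:**
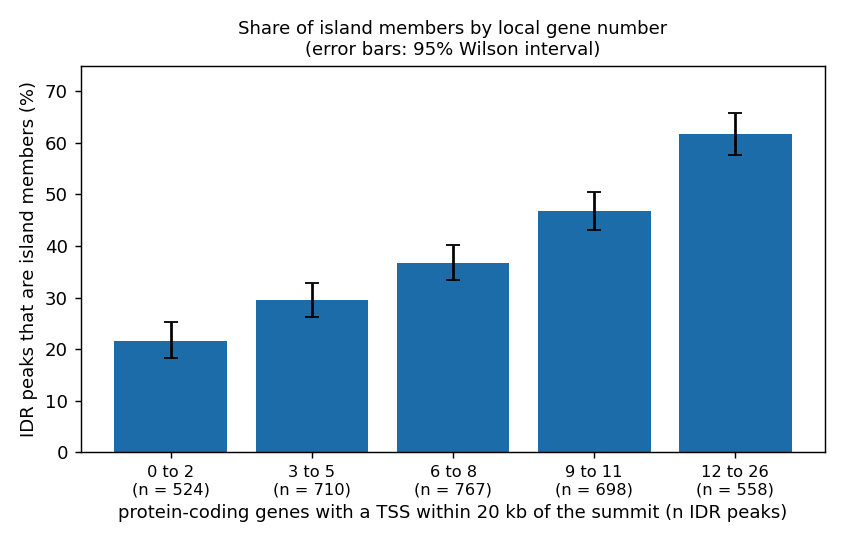
Share of IDR peaks that were island members (vertical axis, percent) by the number of protein-coding genes with a TSS within 20 kb (horizontal axis), with 95% Wilson intervals. The share is 21.6% in the sparsest class and 61.8% in the densest. Genes were counted within the same 20 kb as the rule's summits, so the rise is set in part by the choice of members.

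The share of members at promoters was higher than that of other peaks overall and lower at a given gene number. Promoter peaks were those with a protein-coding TSS no more than 500 bp from the summit. This held for 812 of 1275 members (63.7%, Wilson interval 61.0 to 66.3), 59.3% of the other IDR peaks (57.2 to 61.5), 61.0% of all IDR peaks and 25.2% of relaxed peaks not in the IDR list. Where 3 to 5 genes lay within 20 kb, however, 32.5% of members (26.5 to 39.2) and 51.1% of other peaks (46.7 to 55.5) were at promoters. With 6 to 8 genes the shares were 56.7% and 70.1%. The member share was the lower one in all 5 gene-number classes, by the least in the densest ones (82.2% and 83.9% with 9 to 11 genes, 87.0% and 87.8% with 12 to 26). The Wilson intervals overlapped with 0 to 2, 9 to 11 and 12 to 26 genes. With each site counted once the member share was again lower in all 5, at 29.0% against 49.8% with 3 to 5 genes. Members need other summits within the same 20 kb over which these genes were counted. Whether this lowers the promoter share of members where few TSSs lie nearby was not tested. The rule itself may thus bear on these shares, and nothing is read from their order.

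Divergent promoters, where genes on opposite strands start head to head within 1000 bp, followed the same order. They held 30.8% of members (28.3 to 33.4) and 25.03% of other peaks (23.2 to 27.0). At a given gene number the member share was lower in 4 of 5 classes, such as 20.9% against 28.2% with 6 to 8 genes, and near equal with 9 to 11 genes (44.2% and 44.1%). Counted by peak, the Wilson intervals of these divergent shares overlapped in all 5 classes. With each site counted once the member share was lower in all 5, with 38.2% against 45.2% with 9 to 11 genes. By site the intervals lay apart only with 3 to 5 genes, at 4.30% (1.69 to 10.5) against 13.5% (10.8 to 16.7). The choice of members may bear on these shares too, and nothing is read from their order. Median signal went the other way, higher for members in all 5 classes, with ratios of 1.08 to 1.21; counted by site, the ratios ran from 0.908 to 1.10. Outside promoters, 290 members were in introns (22.7%; 25.6% of others), 136 were intergenic (10.7%; 11.8%) and 6 were in coding exons. Of promoter members 81.0% had the summit upstream of the nearest TSS, against 85.5% of other promoter peaks.

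The searched motifs had like shares in members and others, with overlapping Wilson intervals for all 6. On both strands within 50 bp of the summit, TATCGATA, the site of the replication and growth regulator DREF, was in 46 members (3.61%, Wilson interval 2.72 to 4.78) and 3.13% of other IDR peaks. CGATA, a core bound by the insulator protein BEAF-32 that the DRE also contains, was in 21.8% and 19.8%. GGTCACAC was in 2.35% and 1.72%, and AGAGATG in 3.14% and 3.23%. TAGCTA, a palindrome already known from these data, was in 7.84% and 8.02%, and GAGAG, bound by the GAGA factor, in 9.02% and 9.54%. Windows of the same length at relaxed peaks outside the IDR list held these words in 1.02%, 13.7%, 0.9498%, 1.496%, 1.66% and 12.9%, in the order just given.

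Some of these words lay mainly at promoters, inside islands and outside. The DRE was in 45 of 812 promoter members and 1 of 463 non-promoter members, and among the other IDR peaks in 60 of 1176 and 2 of 806. GGTCACAC was in 30 of 812 and 0 of 463 members, and in 32 of 1176 and 2 of 806 other peaks. CGATA was in 28.2% of promoter members and 10.6% of non-promoter members, and in 26.3% and 10.3% of other peaks. TAGCTA was in 9.48% of promoter members and 4.97% of non-promoter members. Among other peaks it was in 8.84% and 6.82%, with overlapping Wilson intervals. The Wilson intervals of promoter and non-promoter members overlapped for AGAGATG (3.57% and 2.38%) and for GAGAG (8.25% and 10.4%). In other peaks they overlapped for AGAGATG (3.06% and 3.47%) but not for GAGAG (7.74% and 12.2%). The CG14194 and AIF windows above show how such a word sits near the TSS, each summit being within 50 bp upstream of it.

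**Figure D4:**
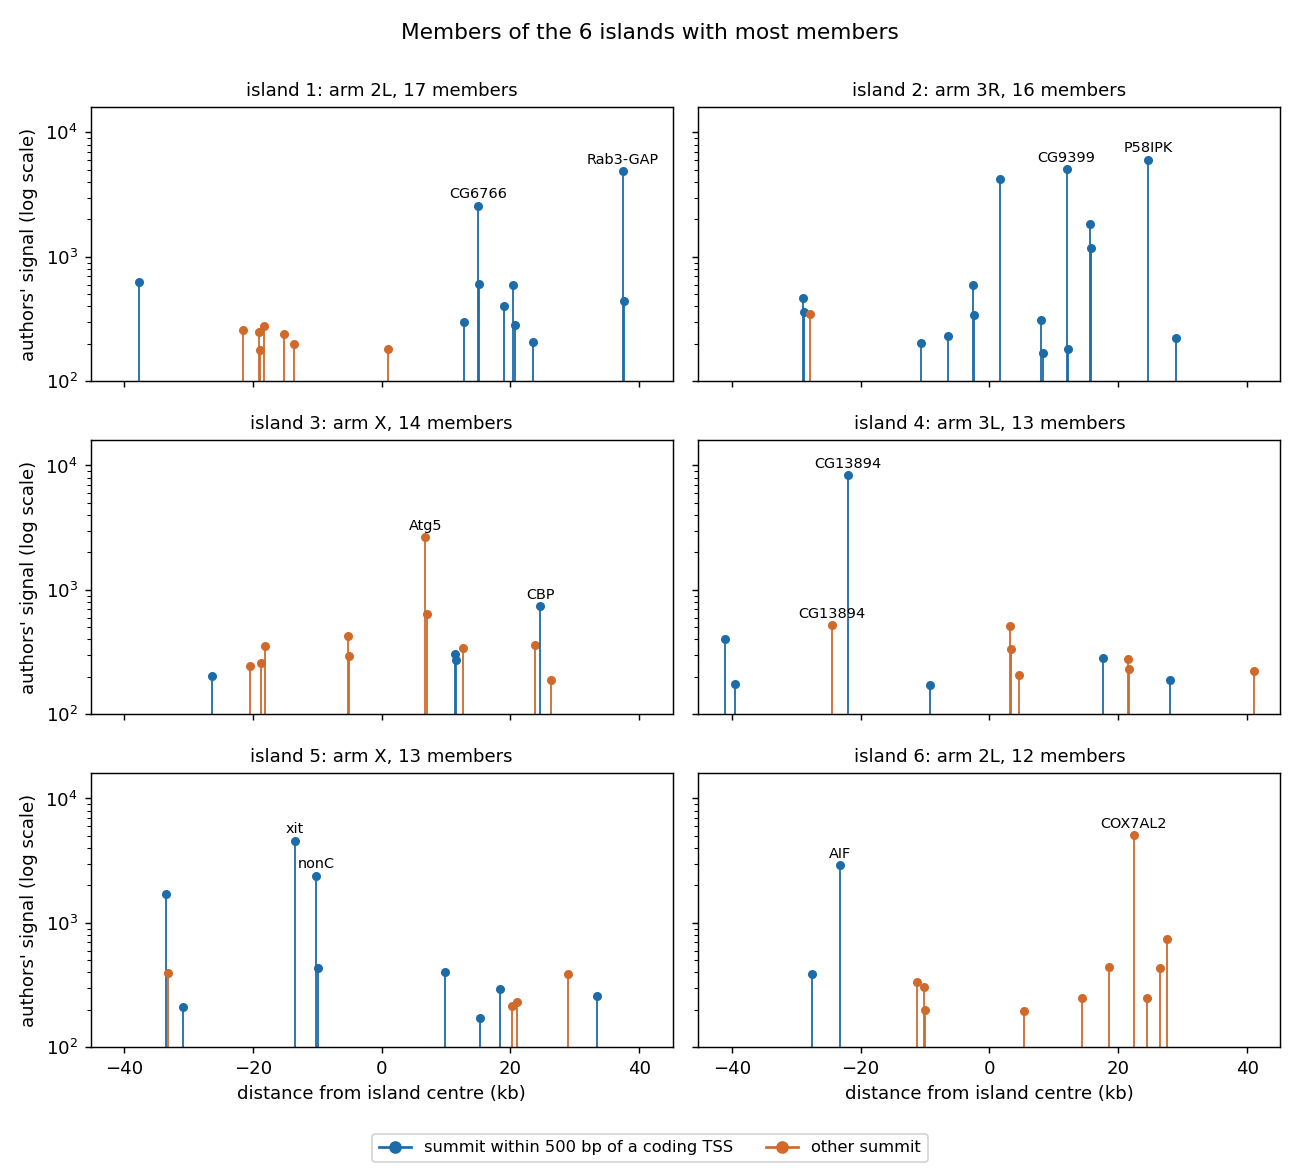
The 6 islands with most members, 85 in all: each line is a member, placed by its distance from the island centre (kb, horizontal axis) and as high as its authors' signal (log scale, vertical axis), blue for summits within 500 bp of a protein-coding TSS and orange for others, with the 2 highest of each island named. Each island has 1 to 5 members above 1000 among many near the bottom of the list, and the second island is nearly all promoter members.

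The island with most members lay on 2L from 11988119 to 12063439, with 17 members at 12 sites, 26 protein-coding genes and IDR summits at the promoters of 9 of them. Its right side was rich in promoters, and its left side, past CG6686 at the end, held low intergenic peaks. The highest member was 41 bp upstream of Rab3-GAP, which encodes a GTPase-activating protein for Rab3, with a signal of 4891 (2260 in replicate 2, 2699 in replicate 4). A second summit in the same peak interval had 439 and no replicate 2 summit within 100 bp. CG6766 had 2564 (1148 and 1443), CG6686 had 623 (176 and 445) and CG6770 had 589.8 (228 and 403). A further peak sat 4 bp inside Tom70, the gene of a mitochondrial import receptor, at 301 (159 in each replicate). Around Rh5, a rhodopsin gene of the eye, 5 intergenic members had signals of only 179 to 276. The 2 replicates ranked them differently: the member 1253 bp upstream of Rh5 was at 23.5 in replicate 2 and 170.1 in replicate 4. In all, 7 of the 17 members were among the highest of both replicates.

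The second island, on 3R from 9533262 to 9591142, was a row of promoters. Of its 16 members, at 10 sites, 15 were at promoters, and IDR summits lay at the promoters of 15 of its 20 protein-coding genes. P58IPK, which encodes a co-chaperone of the endoplasmic reticulum, had the highest signal with 6035 (2563 in replicate 2, 3520 in replicate 4). CG9399 followed with 5056 (1751 and 3354) and Vps45, a vesicle trafficking gene, with 4201 (1088 and 3183). These members kept their order of height in the IDR list and in both replicates. The head-to-head genes Kap-alpha3, an importin, and Son had 2 summits 199 bp apart, with 1849 (569 and 1288) on the side of Kap-alpha3 and 1170 (233 and 558) on the side of Son, where the DRE was found. Low members sat at mura (204), at BckdhA, a gene of branched-chain amino acid breakdown (229, with a DRE), and at bocks (223). The lowest signal of the whole IDR list, 169, belonged to a secondary summit at CG16790 in this island.

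The third island, on X from 7286171 to 7338713, was mostly intronic. Of its 14 members, at 9 sites, 4 were at promoters, and 10 lay away from promoters within the 125 kb of the gene CG1677, which overlaps several other genes. The highest was in an intron of Atg5, a gene of autophagy, at 2653 (796 in replicate 2, 1850 in replicate 4). The member 282 bp upstream of the gene named CBP, which is a different gene from nej, had 742 (311 and 339). A summit 779 bp upstream of brk, the gene of a repressor in Dpp signalling, had 423 in the IDR list but 17.4 in replicate 2 and 412 in replicate 4. That member was thus high in a single replicate, and 6 of the 14 were among the highest of both.

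The fourth island, on 3L from 680359 to 762479, was the longest, 82.1 kb for 13 members, and had the steepest fall from its highest to its median member among the 6 (29.8 times). CG13894 stood at 8361 (1883 in replicate 2, 6514 in replicate 4), and the next member was an intronic summit of the same gene at 519 (214 and 326). A member 14 bp inside emc, whose helix-loop-helix product inhibits proneural proteins, had 189 (114 and 98.4). The other members, around CG17129, CG3386, CG13896 and hng3, ran from 171 to 516.

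The fifth island, on X from 6801033 to 6867807, had 13 members at 10 sites and IDR summits at 11 of its 14 genes. The promoter shared by xit, an endoplasmic reticulum glucosyltransferase gene, and Nf-YC, a subunit of the CCAAT-binding factor, had 4555 (2187 in replicate 2, 2403 in replicate 4). nonC, which encodes the Smg1 kinase of nonsense-mediated decay, had 2384 (800.2 and 1597). C3G, an exchange factor for Rap1, had 1697 (549 and 1145). These 3 promoters stood apart from the other 10 members, which ran from 174 to 432.

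The sixth island, on 2L from 2147403 to 2202437, had 12 members at 11 sites but only 2 at promoters; another island also had 12 and was ranked after it by summed signal. COX7AL2, a gene related to a cytochrome c oxidase subunit, had 5064 (1464 in replicate 2, 3824 in replicate 4), in its 5′ UTR and 558 bp from the TSS, just beyond the promoter window. AIF, the apoptosis-inducing factor gene, had 2906 (1239 and 1715). Within and beside aop, which encodes the ETS repressor Yan, 4 members had 196 to 334. In this island 10 of 12 members were among the highest of both replicates, the largest share of the 6.

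**Figure D5:**
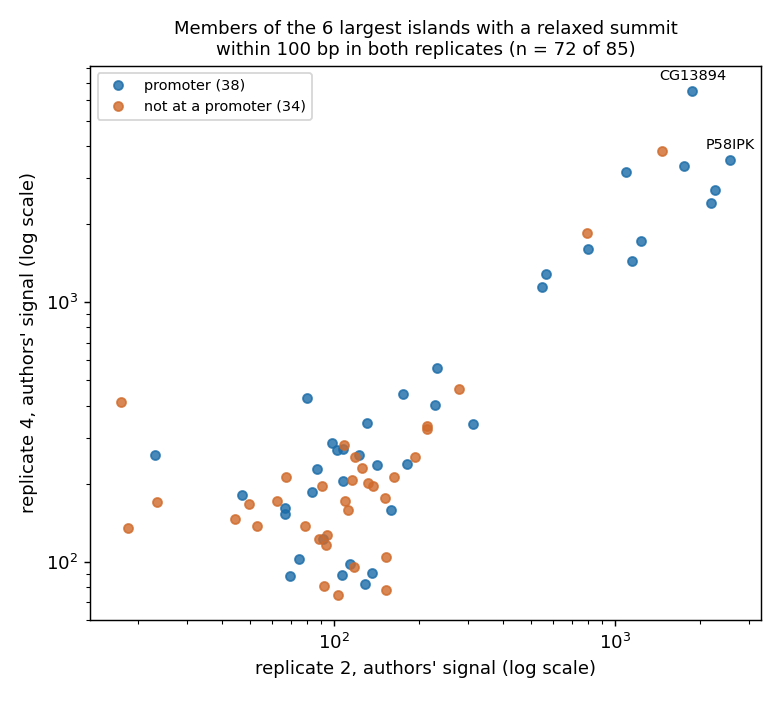
Signal in replicate 2 (horizontal axis, log scale) and replicate 4 (vertical axis, log scale) of the members of the 6 largest islands with a relaxed summit within 100 bp in both, 72 of 85, of which 38 were at promoters. High members such as P58IPK (2563 and 3520) and CG13894 (1883 and 6514) are high in both, while members below about 500 scatter.

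The 10 highest members belonged mostly to small islands. The mRpL43 peak, at a promoter that this gene of the mitochondrial ribosome shares with CG30183, had 11009 (2938 in replicate 2, 8081 in replicate 4) and ranked 3 in the IDR list. CG10274 had 9709 (2516 and 7311), pyd 8818 (2259 and 6664) and the intronic Pcif1 peak 8450 (1902 and 6533). After CG13894 came cold, a septate junction gene, with 7925 (2185 and 5853), and a peak in the 3′ UTR of Ppa, an F-box protein gene, with 7888 (1789 and 6463). CG11858, CG5776 and CG3587 completed the 10 with 7732, 7551 and 7529, each at a divergent promoter. All 10 were among the 56 highest peaks of replicate 2 and the 31 highest of replicate 4, and 9 of the 10 islands had 4 or 5 members. Such sizes were common: islands of 4 held 364 of all 1275 members and islands of 5 held 310.

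The gene of the tagged protein lay in an island itself, as did some of the genes related to it. The tenth island, on 3R from 30022134 to 30061299, covers the serendipity cluster with 10 members at 9 sites; it and the other islands described from here on were chosen after their values were seen. A single summit at the promoters of Sry-alpha, Sry-beta and janA had 309 (122 in replicate 2, 155 in replicate 4). Sry-delta, the neighbouring zinc finger gene, had 987 (529.8 and 517), and the divergent promoter of RpL32, a ribosomal protein gene, had 679 (319 and 511). The highest member of the island was at CG7950, with 5960.0 (2237 and 3874). The tagged gene's own promoter was thus among the lowest members of its island, above only sima, the HIF-alpha gene (297). Within Axn, the gene of the Axin scaffold, 2 intronic summits had 979 (181 and 805) and 677 (123 and 59.1). In another island, on 3L, D19B, a further ZAD gene, had 1012 (492 and 529.8) next to the CG10274 peak.

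An island at a developmental gene complex lacked a high peak. The seventh island, on 3R from 25996558 to 26059360, covers genes of the Enhancer of split complex, which are targets of Notch signalling. It had 12 members at 8 sites with 23 protein-coding genes, and some members lay at other genes, such as Cmpk and RpL34a. Its median signal of 270 was close to the medians of the 6 larger islands, which ran from 281 to 386. Its highest signal was 828, at an intergenic summit 1755 bp from E(spl)malpha-BFM (211 in replicate 2, 632 in replicate 4), against 2653 to 8361 for the highest member of each of the 6 islands ranked before it. E(spl)m7-HLH had 409.9 (63.9 and 323) and 3 summits near E(spl)m3-HLH had 186 to 340.4. Over the corepressor gene gro, 2 promoter members had 185 (111 and 85.7) and 292 (112 and 175). In replicate 2 the 3 summits near E(spl)m3-HLH had only 54.6 to 57.6, and 5 of the 12 members were among the highest of both replicates.

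Islands without any promoter member were fewer than islands made of promoters alone. In 24 of the 218 islands of 4 or more no member was at a promoter, whereas in 61 every member was. Among the 24, 5 members lay in shn, a zinc finger gene of Dpp signalling (signals of 266 to 4480), and 5 in sbb (200.0 to 1635). In others of the 24 only some of the members lay in the gene named here. There were 2 each in sty, the gene of the receptor tyrosine kinase antagonist Sprouty, and in Mnt. There was 1 each in Smr, a corepressor gene, and in Psc of the Polycomb group. The largest groups of non-promoter members within one gene were those of CG1677 with 10 and rdx with 6. The rdx island, on 3R from 14009071 to 14053542, combined both kinds: the promoter of rdx, a Cullin adaptor gene of Hedgehog signalling, had 5980 (1227 in replicate 2, 4841 in replicate 4). Its introns held members of 2617 (743 and 2178) and 2506 (656 and 1851) and 4 lower ones of 186 to 519. At tara, a gene of the trithorax group, the 10 members of the twelfth island had no peak above 656, and 4 of them were among the highest of both replicates.

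Not every gene in an island was bound. The spans of the 218 islands held the TSSs of 1375 protein-coding genes, and 905 of these genes (65.8%) were bound by this measure, an IDR summit no more than 500 bp away. Over all 13945 protein-coding genes the share was 18.1%. The spans were drawn between IDR summits chosen for their density, so nothing is read from that difference. In 64 islands every protein-coding gene of the span had such a summit, and 15 islands held no protein-coding TSS.

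Gene groups were described by how many of their bound members were bound in an island. Among 13945 protein-coding genes, the promoters of 2518 (18.1%) held an IDR summit and those of 978 (7.01%) a member summit, so that 38.8% of bound genes were bound in an island. Genes of cytoplasmic ribosomal proteins had member summits at 25 of 92 (27.2%), which was 42.4% of the 59 bound. The highest were at RpL4 (1810, in a peak nearer to BCAS2), RpS27 (772), RpL32 (679) and RpL35 (579, nearer to Rab18). Mitochondrial ribosomal protein genes had 12 of 73, or 42.9% of the 28 bound, with mRpL27 at 4178 after mRpL43. Proteasome genes had 5 of 48, or 38.5% of 13 bound, led by Rpn11 with 4874 and Rpn13 with 4861. Aminoacyl-tRNA synthetase genes had 4 of 32, or 30.8% of 13 bound, led by TrpRS-m with 2570.

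The remaining lists were short. The list of insulator proteins had 4 of 12 genes with a member summit, out of 8 bound: Ibf1 and Ibf2, adjacent genes with 1 peak between them (449), CTCF (223) and dwg (175). The ZAD list had 5 of 10, out of 6 bound, including D19B (1012), Sry-delta (987), grau (929) and Sry-beta (309). No promoter of 8 Hox genes or of 15 gap and pair-rule genes held an IDR summit. These lists were chosen with earlier results known, and the counts are descriptions with no test.

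The rule gave overlapping but not equal sets in the replicates. Applied to the 3257 highest peaks of each replicate alone, it selected 1197 members in replicate 2 and 1374 in replicate 4. Of the 1275 IDR members, 714 (56.0%) had a replicate 2 member within 100 bp and 937 (73.5%) a replicate 4 member. Between the replicates, 553 members matched, which was 46.2% of those in replicate 2 and 40.2% of those in replicate 4. As a looser description, any 3 of a replicate's highest summits within an island's span were found for replicate 2 in 188 of the 218 islands of 4 or more, for replicate 4 in 210 and for both in 180; the spans were chosen from a list made from both replicates, so these counts are no check of the islands. In 171 islands at least 50% of the members were among the highest of both replicates, in 23 all were, and in 2 none was.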

How the data were processed

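The 2 ChIP-seq libraries of Sry-beta-GFP embryos, replicates 2 and 4, were analysed through 4 deposited dm6 peak lists. The relaxed list of each replicate and the pooled one were made against 1 control, and the IDR list from them, per the deposited readme files. Which aligner, peak caller and threshold were used is not given in the sources used here. The signal of each peak is the authors' deposited value, of unstated scale, compared only within a list. Summits were read as start plus offset plus 1; in 2 peaks this lies past the peak's end. Computation used Python 3.11.15, numpy 2.4.6, pandas 2.3.3, scipy 1.17.1 and matplotlib 3.10.9, with genes of Ensembl release 115 and the release 6 genome. Wilson and order-statistic median intervals are at 95%. The island rule was tested on simulated positions.

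Named were all members of the 6 islands with most members, the 10 highest members and up to 4 members per gene list. Members, lists and motifs were chosen with earlier results of these data known; site classes and gene-number classes were added after the data were seen. Alternatives covered neighbours, radius, chaining, signal, each replicate, sites, promoter, match and motif windows.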

Additional observations from a re-analysis of the deposited data

How the results depend on the processing

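The count of 1275 members and 269 islands depended on the rule. With at least 2 neighbours there were 1950 members and 447 islands, with at least 4 there were 777 and 165, with a radius of 10 kb 602 and 156, and with 30 kb 429 islands (and 1762 members). Windows that reach 20 kb to each side of a summit, another reading of the chaining rule, gave 253 islands. In the higher-signal 50% of the list there were 330 members and 82 islands, and with summits within 1 kb counted once 698 and 179. The median signal of members was 308 with at least 2 neighbours, 361 with 10 kb, 308 with 30 kb, 644 in the higher-signal list and 306 by site, and the median number of nearby genes was 10 with at least 4 neighbours and by site. The share in both replicates was 77.3% in the higher-signal list, 65.0% by site, 44.7% with summits within 50 bp, 67.0% within 200 bp and 84.2% in the whole relaxed lists. The promoter share was 71.8% in the higher-signal list, 52.9% with a window of 250 bp and 71.6% with 1000 bp. The divergent share was 35.8% in the higher-signal list, 27.1% with TSSs within 500 bp, and 26.6% to 32.5% in the replicates alone. The DRE share was 1.41% within 25 bp, 7.14% within 100 bp and 3.13% to 4.93% in the replicates alone. Counting by site was applied to shares, medians and motifs after seeing the data. Taken over all gene numbers together, members exceeded other peaks in promoter and divergent share, nearby genes and median signal under each setting of the rule. The signal ratio ran from 1.07 to 1.28. The DRE share was also higher in members except in the higher-signal list (2.73% and 3.23%). Within gene-number classes the promoter share of members was instead lower in all 5, and the by-site signal ratio ran from 0.908 to 1.10. Every setting chose members by density, so nothing is read from these excesses. No paired analysis was possible because there is 1 group.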
